A study of Mus musculus with 8 samples.

Results

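The 10 genes described here make and desaturate fatty acids: the stearoyl-CoA desaturase genes Scd1, Scd2 and Scd4, the synthesis genes Acly, Acaca, Acacb, Fasn and Elovl6, and the regulators Thrsp and Srebf1. They were taken by symbol from the count tables of both time points, where all 10 were found among 24062 genes. The list was drawn up from earlier results of these data on myocardial infarction (MI) against sham, so the fold changes and adjusted p-values of that contrast place each gene in the whole table and are not independent support. All mice were male C57BL/6 mice aged 8-12 weeks, and RNA was taken from the left ventricular free wall. In the MI groups the left anterior descending (LAD) artery had been ligated and ischemic tissue was taken at 1 day or 3 days. In the sham groups surgery was done without ligation, with separate sham mice for each time point. Each of the 4 groups had 2 mice, given here as libraries A and B by their column order, and the tissue was frozen and pulverized whole.

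In fatty acid synthesis, ATP citrate lyase (Acly) makes acetyl-CoA in the cytosol, an acetyl-CoA carboxylase turns it into malonyl-CoA, and fatty acid synthase (Fasn) builds palmitate from both. Elovl6 lengthens palmitate to stearate, and the stearoyl-CoA desaturases add a double bond. The carboxylase Acaca serves synthesis in the cytosol, whereas Acacb sits at the mitochondrial outer membrane, where its malonyl-CoA inhibits the entry of fatty acids for oxidation, the main fuel use of the adult heart. Srebf1 encodes the transcription factor SREBP-1, and Thrsp encodes Spot 14, a nuclear protein tied to lipogenesis in liver and fat. Among the mouse desaturases, Scd1 is best known from liver and fat, Scd2 from brain and growing tissues, and Scd4 from the heart.

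The desaturase genes lie together on chromosome 19, and all positions are those of RefSeq on GRCm38.p6, the assembly of mm10. Scd2 spans chr19:44293676-44306864, Scd4 spans chr19:44333326-44346743 and Scd1 spans chr19:44394450-44407709. Their coding sequences were alike, with 89.8% identity between Scd1 and Scd2, 84.5% between Scd1 and Scd4, and 83.0% between Scd2 and Scd4. A sequencing read shorter than the longest run shared between paralogs cannot be assigned to one of them there. That run was 147 bases for Scd1 and Scd2, 116 bases for Scd1 and Scd4, and 98 bases for Scd2 and Scd4. The run shared by Scd1 and Scd2, in the coding part of the Scd1 transcript of GENCODE (bases 823 to 969), is printed because it is the longest run shared among the 3 desaturase genes described here. Scd1 shared a longer run, of 185 bases, with Scd3. The 35 bases in capitals are also in Scd4.
Scd1 and Scd2: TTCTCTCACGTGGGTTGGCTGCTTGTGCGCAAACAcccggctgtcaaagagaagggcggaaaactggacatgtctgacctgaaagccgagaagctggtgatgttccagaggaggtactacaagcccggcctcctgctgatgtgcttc
Outside such stretches the paralogs could be told apart. Of all 50-base windows of their transcripts, 4.66% of those of Scd1, 3.79% of those of Scd2 and 5.53% of those of Scd4 were found in the transcript of another gene. For 100-base windows the shares were 2.64% for Scd1, 0.897% for Scd2 and 0.53% for Scd4. For Fasn, Acly, Acaca, Acacb and Thrsp no 50-base window was found in another gene's transcript.

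The remaining genes lie on several chromosomes. Fasn spans chr11:120805958-120825166, Acly chr11:100476352-100528000, Acaca chr11:84129635-84401651 and Srebf1 chr11:60199084-60224186. Acacb spans chr5:114146321-114250761, Elovl6 chr3:129532386-129638495 and Thrsp chr7:97412933-97417550. Srebf1 overlaps Rai1 at one end, Acaca overlaps Tada2a and Gm11437, and Elovl6 overlaps the long noncoding gene Gm35986. The strand setting was not given in the sources used here, and reads in those overlaps cannot be told apart.

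RefSeq promoter windows, from 250 bases before to 50 bases after an annotated start on GRCm38.p6, were at hand for 8 of the 10 genes, in 10 windows, of which 3 belong to Srebf1. The CCAAT box bound by NF-Y (CCAAT, either strand) was in 6 of these 10 windows, in 5 genes, beside 37.4% of all 32851 promoter windows. The Sp1 box (GGGCGG, either strand) was in 3 of the 10 windows, in 2 genes, beside 35.7% of all windows. Neither the sterol response element searched for (TCACNCCAC, either strand, 1.24% of all windows) nor the E-box (CACGTG, either strand, 7.15% of all windows) was matched in these 10, which says only that these letters are not in these windows. The windows of Fasn (chr11:120824498-120824797, minus strand), Acly (chr11:100527951-100528250, minus strand), Thrsp (chr7:97417501-97417800, minus strand) and Acacb (chr5:114165268-114165567, plus strand) are printed because all hold a CCAAT box, while the first pair was higher and the second pair lower in MI than in sham tissue at 3 days. Capitals mark CCAAT or GGGCGG on either strand; the matches overlap where Fasn reads CCAATTGG. The Acacb window lies at a start inside the gene's span.
Fasn: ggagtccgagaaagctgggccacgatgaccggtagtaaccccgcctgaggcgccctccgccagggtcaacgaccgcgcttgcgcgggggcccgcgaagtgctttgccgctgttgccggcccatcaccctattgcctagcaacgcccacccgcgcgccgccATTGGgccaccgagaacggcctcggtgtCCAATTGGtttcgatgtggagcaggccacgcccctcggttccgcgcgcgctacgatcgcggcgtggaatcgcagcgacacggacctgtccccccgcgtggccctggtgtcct
Acly: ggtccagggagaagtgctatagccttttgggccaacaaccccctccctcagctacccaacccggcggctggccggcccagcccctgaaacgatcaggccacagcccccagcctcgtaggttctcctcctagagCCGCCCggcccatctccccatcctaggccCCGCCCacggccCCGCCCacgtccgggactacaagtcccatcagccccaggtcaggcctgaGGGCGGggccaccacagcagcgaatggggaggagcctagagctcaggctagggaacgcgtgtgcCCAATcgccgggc
Thrsp: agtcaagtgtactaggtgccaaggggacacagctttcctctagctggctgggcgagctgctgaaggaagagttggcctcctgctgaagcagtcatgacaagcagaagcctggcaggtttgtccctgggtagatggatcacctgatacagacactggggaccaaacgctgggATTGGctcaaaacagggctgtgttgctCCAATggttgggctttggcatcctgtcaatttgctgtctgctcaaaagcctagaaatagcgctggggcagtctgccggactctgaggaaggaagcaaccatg
Acacb: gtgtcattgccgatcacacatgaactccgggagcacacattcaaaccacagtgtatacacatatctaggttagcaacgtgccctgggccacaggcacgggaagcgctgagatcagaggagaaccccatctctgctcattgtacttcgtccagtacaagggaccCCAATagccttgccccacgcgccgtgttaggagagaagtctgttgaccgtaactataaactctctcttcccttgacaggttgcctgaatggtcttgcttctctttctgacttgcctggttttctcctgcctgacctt
In Fasn the boxes began at -90, -62 and -59 from the start, in Thrsp at -79 and -52, and in Acacb at -87. Acly had its CCAAT box at 37 bases past the start and Sp1 boxes at -117, -88, -76 and -27. A match is a description of the sequence and not evidence of binding.

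The libraries held 7382490 to 25041386 gene counts, and 3 counts corresponded to 0.102 to 0.369 CPM (counts per 10⁶ of the library size, scaled by the TMM method). Library B of MI at 1 day was the shallowest, and 92.23% of 1468 chemosensory (olfactory, vomeronasal and trace amine-associated) receptor genes had a count there. That share was 50.75% in library B of sham at 1 day, 23.5% in library A of MI at 1 day and 4.09% to 7.83% elsewhere. Library B of each 1-day group thus stood apart, and library A of MI at 1 day did so to a lesser degree. The summed level of 10 cardiomyocyte markers was 48800 and 33300 CPM in MI against 104000 and 98700 CPM in sham at 1 day, and 3660 and 3680 CPM in MI against 74500 and 79200 CPM in sham at 3 days, with all 10 lower at both days. At 3 days the sums of 9 macrophage markers were 6500 and 7030 CPM in MI against 1740 and 890 CPM in sham, and those of 8 fibroblast markers 15000 and 15100 CPM against 4400 and 2160 CPM. Mitochondrial transcripts took 49.2% and 61.26% of unique reads in MI against 31.26% and 28.51% in sham at 1 day, and 13.93% and 9.18% against 33.06% and 32.77% at 3 days. The part of these shifts in the results was not tested, and in bulk tissue fewer cells of a type and less RNA per cell cannot be told apart. Of the fat markers, Adipoq reached at most 1.85 CPM, in library B of MI at 1 day, and 0.041 to 0.348 CPM elsewhere. Lep was at 0 in 5 libraries. Of 4 brown adipocyte markers, Ucp1 and Elovl3 reached at most 1.23 and 1.97 CPM, in that same library. Cidea and Dio2 were not near 0. Cidea averaged 39.7 CPM in sham and 17.4 CPM in MI at 1 day, and 4.59 CPM in MI at 3 days. Dio2 averaged 18.4 CPM in MI against 3.92 CPM in sham at 1 day, and 9.51 against 4.93 CPM at 3 days. Their source cells were not tested. Of 10 white adipocyte markers, which summed to 52.0 and 51.9 CPM in MI against 81.3 and 67.1 CPM in sham at 1 day and to 10.2 and 8.99 against 67.0 and 60.1 CPM at 3 days, most of the level came from Aqp7 and Lipe, which heart muscle also expresses.

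All 10 genes passed the filter on low counts. At 1 day 7 of them passed an adjusted p of 0.05 in edgeR's quasi-likelihood test, 4 higher and 3 lower in MI, where 39.0% of all 15508 genes tested did so (19.3% higher and 19.7% lower). At 3 days 8 passed, 5 higher and 3 lower, where 55.4% of all genes did (31.7% higher and 23.7% lower). Nothing is read from these shares, since the list was chosen on this contrast. The median log2 fold change over the 10 genes was 0.23 at 1 day and 0.66 at 3 days, beside 0.12 and 0.16 over all genes tested. Values below are CPM for libraries A and B, then log2 fold changes of MI over sham with their fitted standard error (SE).

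**Figure D1:**
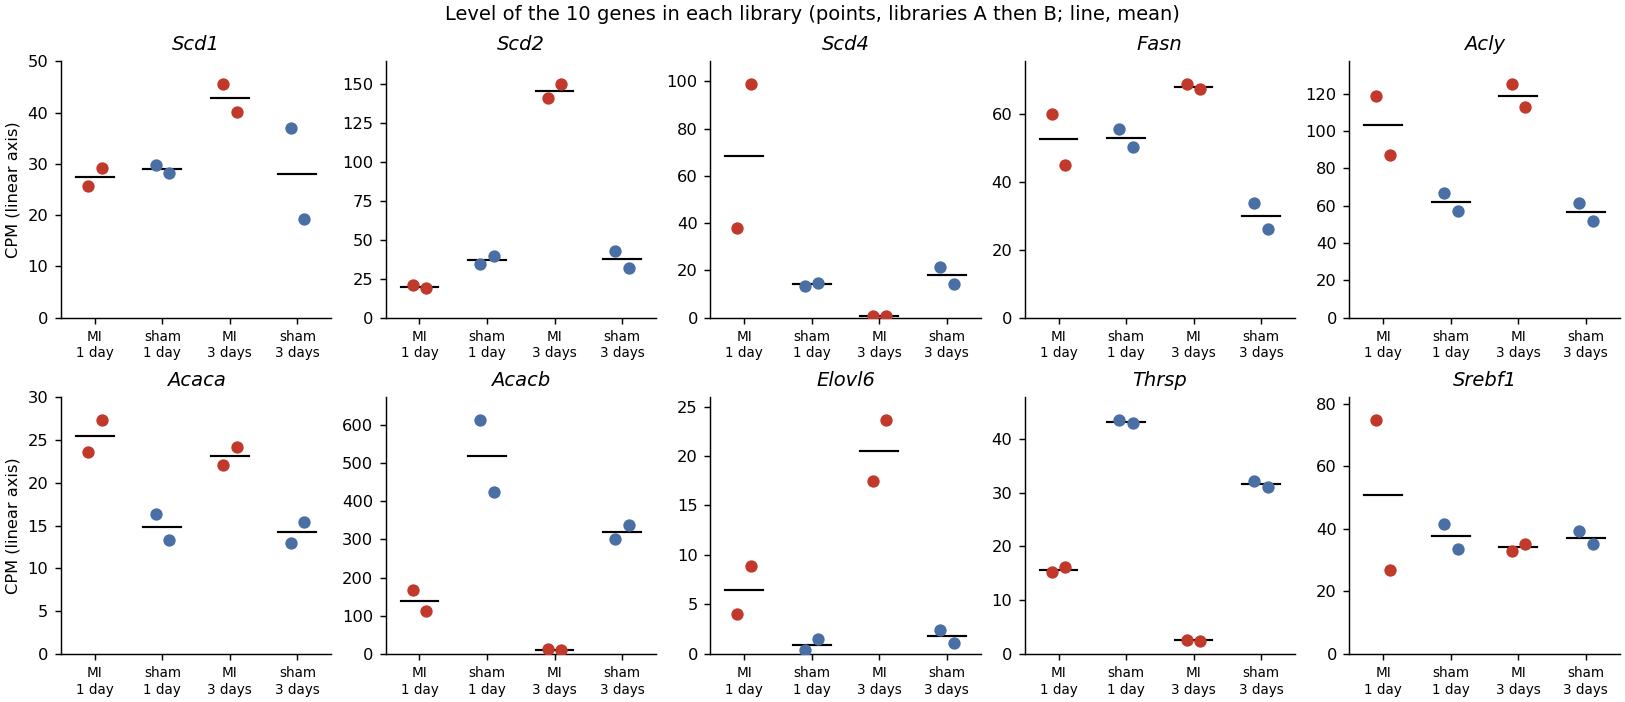
Level of each of the 10 genes in CPM (linear axes from 0) in the 8 libraries, with MI in red left of its sham controls in blue; points are libraries A and B and lines are means of 2. At 3 days Scd2 was at 141 and 150 CPM in MI against 42.9 and 32.0 CPM in sham, whereas Acacb was at 11.2 and 10.7 against 301 and 338 CPM.

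The desaturases took 3 different courses. Scd4 was higher in MI than in sham tissue at 1 day and almost absent from MI tissue at 3 days, Scd2 was lower at 1 day and higher at 3 days, and Scd1 passed the threshold at neither day. At 1 day Scd4 stood at 38.0 and 98.7 CPM in MI against 13.4 and 14.7 CPM in sham. Both MI libraries were above both sham libraries and library B was the higher of the MI pair. The difference was 4.8-fold (log2 fold change 2.26, SE 0.41, adjusted p = 0.00257). Without library B of MI at 1 day, which stood apart, it was 1.43 on the log2 scale (SE 0.26, adjusted p = 0.00364), and without library A it was 2.72 (adjusted p = 0.000135), in a range of adjusted p from 1.77e-06 to 0.0363 over all alternatives.

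At 3 days Scd4 was at 0.82 and 0.681 CPM in MI, which was 20 counts in each library, against 21.6 and 14.2 CPM in sham. The MI libraries were far below the sham libraries, by 23.8-fold (log2 fold change -4.57, SE 0.57, adjusted p = 0.00011). The infarct effect on Scd4 thus differed between the days by -6.83 on the log2 scale (3 days minus 1 day, SE 0.70, adjusted p = 0.000291). Between MI tissue at 3 days and at 1 day the log2 fold change was -6.49 (SE 0.56, adjusted p = 2.53e-05). In sham tissue the difference between 3 days and 1 day was 0.35 (SE 0.41, adjusted p = 0.813), and the sham libraries of the days overlapped.

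Scd2 was at 20.9 and 18.9 CPM in MI against 34.3 and 39.7 CPM in sham at 1 day. The groups did not overlap, and the log2 fold change was -0.89 (SE 0.21, adjusted p = 0.00948). At 3 days Scd2 was at 141 and 150 CPM in MI against 42.9 and 32.0 CPM in sham. The 3-day MI libraries were above every other library of the series, and the difference was 3.88-fold (log2 fold change 1.96, SE 0.19, adjusted p = 2.74e-05). The infarct effect differed between the days by 2.84 on the log2 scale (3 days minus 1 day, SE 0.29, adjusted p = 0.000257). MI tissue at 3 days exceeded MI tissue at 1 day by 2.86 (SE 0.21, adjusted p = 1.19e-05), while sham tissue at 3 days differed from sham tissue at 1 day by 0.02 (SE 0.20). The fall at 1 day missed the threshold with library size alone as the scaling (-0.60, adjusted p = 0.0514) and without library B of sham at 1 day (-0.84, adjusted p = 0.0804), in a range of adjusted p from 0.000472 to 0.0804 over all alternatives.

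Scd1 was at 25.7 and 29.2 CPM in MI against 29.7 and 28.3 CPM in sham at 1 day, and these groups overlapped (log2 fold change -0.09, SE 0.29, adjusted p = 0.836). At 3 days Scd1 stood at 45.5 and 40.2 CPM in MI against 37.0 and 19.2 CPM in sham. The sham libraries were further apart than the group means (log2 fold change 0.61, SE 0.27, adjusted p = 0.084). Without library A of sham at 3 days, the sham library with the higher Scd1, the value was 1.16 (adjusted p = 0.00456). It also passed with library size alone as the scaling (0.86, adjusted p = 0.0246) and in limma-voom (0.68, adjusted p = 0.0491), in a range of adjusted p from 0.00456 to 0.576 over all alternatives. Library A of sham at 3 days also had the higher sums of macrophage markers (1740 CPM against 890 CPM in library B) and of fibroblast markers (4400 against 2160 CPM), and their part in the Scd1 level was not tested.

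Set against each other per length of transcript, the desaturases changed order. The share of Scd4 in the length-corrected reads of the 3 genes was 55.6% and 75.8% in MI against 24.6% and 25.3% in sham at 1 day. At 3 days it was 0.697% and 0.573% in MI against 29.6% and 30.4% in sham. Scd2 took 18.6% and 8.83% in MI against 38.1% and 41.4% in sham at 1 day, and 72.8% and 76.3% against 35.7% and 41.6% at 3 days. Scd1 took 25.8% and 15.3% in MI against 37.3% and 33.3% in sham at 1 day, and 26.5% and 23.1% against 34.7% and 28.1% at 3 days. In both sham groups the 3 genes thus held shares of the same order, while Scd4 led at 1 day and Scd2 at 3 days in MI tissue.

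**Figure D2:**
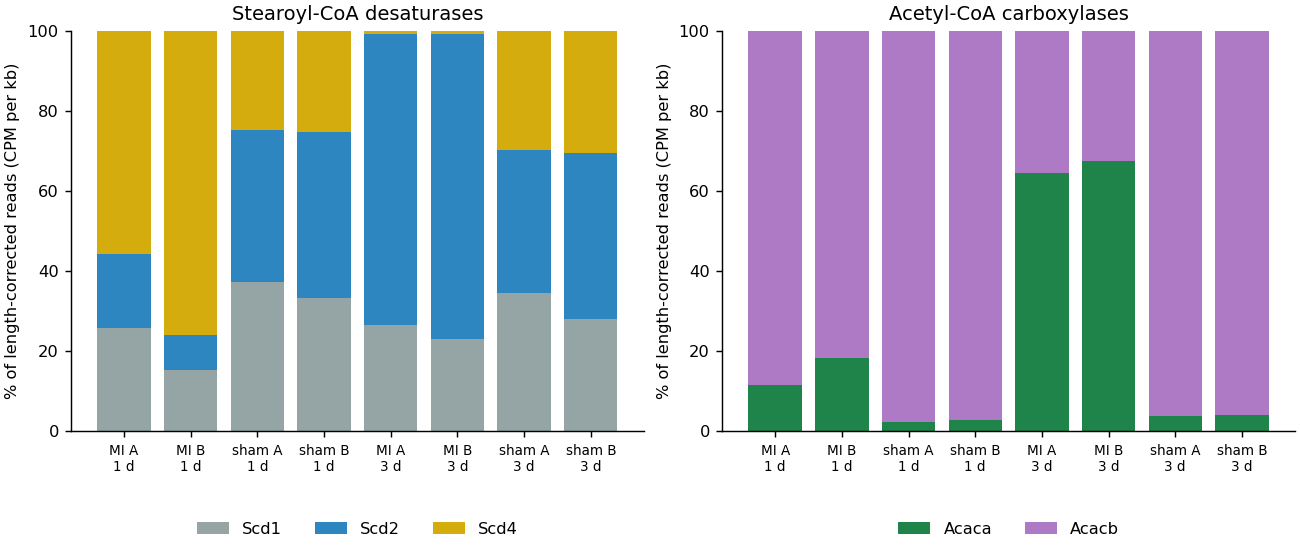
Share of each gene in the length-corrected reads (CPM per kb of the longest transcript, in %) of the desaturases on the left and of the acetyl-CoA carboxylases on the right, one stacked bar per library with MI left of its sham controls. Scd4 fills 55.6% and 75.8% of the bars of MI at 1 day and 0.697% and 0.573% of those of MI at 3 days, and Acacb fills 96.0% to 97.6% of every sham bar.

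The opposite courses of Scd2 and Scd4 held in reads that the deposited transcript tables list as unique to a transcript. By that name, reads shared by several transcripts of the same gene may be left out. Scd1 and Scd2 had 1 transcript each there and Scd4 had 2, whereas Fasn had 6, Acly 7, Acaca 8 and Srebf1 12. Unique reads of Scd4 numbered 195 and 369 in MI against 95 and 128 in sham at 1 day, and 12 and 10 in MI against 175 and 106 in sham at 3 days. Those of Scd2 numbered 134 and 89 against 308 and 378 at 1 day, and 1921 and 2139 against 423 and 283 at 3 days. From unique reads the log2 fold changes of MI over sham at 1 and 3 days were 2.14 (SE 0.41) and -4.44 (SE 0.48) for Scd4, -0.92 (SE 0.21) and 1.73 (SE 0.21) for Scd2, and -0.07 (SE 0.30) and 0.34 (SE 0.29) for Scd1. Scd3, the paralog known from skin and the Harderian gland, had 23 counts in library B of MI at 1 day and 0 to 4 counts in each of the other libraries.

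The synthesis genes of the cytosol were mostly higher in MI tissue. Acly was at 119 and 87.3 CPM in MI against 66.7 and 57.1 CPM in sham at 1 day, and at 125 and 113 CPM against 61.5 and 51.6 CPM at 3 days. At both days the MI libraries were above the sham libraries, by 0.74 at 1 day (SE 0.20, adjusted p = 0.0181) and 1.07 at 3 days (SE 0.20, adjusted p = 0.0014) on the log2 scale. Acaca was at 23.6 and 27.3 CPM in MI against 16.3 and 13.3 CPM in sham at 1 day, and at 22.1 and 24.2 CPM against 13.0 and 15.4 CPM at 3 days. It too was higher without overlap at both days, by 0.77 at 1 day (SE 0.22, adjusted p = 0.0207) and 0.70 at 3 days (SE 0.21, adjusted p = 0.0162). At the mean level of the chemosensory receptor genes, the 9513 bases of Acaca would hold 42.5 reads in library B of MI at 1 day, beside 222 counts. By that measure they would hold 5.71 beside 291 in library A of MI, and 5.99 beside 282 and 13.1 beside 232 in sham. The 1-day call of Acly was lost without library A of MI at 1 day (0.40) and without either library of sham at 1 day (0.81 and 0.57), of MI at 3 days or of sham at 3 days, with adjusted p from 0.00243 to 0.216 over the alternatives. That of Acaca was lost without either library of sham at 1 day (0.86 and 0.56) or of MI at 3 days, with adjusted p from 0.00501 to 0.201. Among the 3-day calls, Acly was lost without library A of MI (0.78) and Acaca without library A (0.55) or B (0.41) of MI or library A of sham (0.59), with adjusted p up to 0.261 for Acly and 0.807 for Acaca, both from unique reads.

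Fasn differed between MI and sham tissue at 3 days but not detectably at 1 day. It was at 60.1 and 45.1 CPM in MI against 55.7 and 50.4 CPM in sham at 1 day, where the groups overlapped (SE of the log2 fold change 0.20, adjusted p = 0.99). By 3 days Fasn stood at 68.7 and 67.4 CPM in MI against 33.7 and 26.2 CPM in sham, 2.27-fold higher (log2 fold change 1.18, SE 0.20, adjusted p = 0.000837). The difference between the days' effects was 1.19 (SE 0.29, adjusted p = 0.016). Beside it, MI tissue at 3 days stood above MI tissue at 1 day by 0.36 (SE 0.20, adjusted p = 0.17), and sham tissue at 3 days stood at -0.82 against sham tissue at 1 day (SE 0.21, unadjusted p = 0.00275, adjusted p = 0.631), with no overlap in either pair. The difference of effects missed the threshold in 6 of 14 alternatives: from unique reads (0.64), and without library A (1.17) or B (1.33) of sham at 1 day, library A (1.00) or B (1.01) of MI at 3 days, or library B of sham at 3 days (1.08).

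Elovl6 was nearly silent in sham tissue. At 1 day it was at 3.98 and 8.86 CPM in MI (49 and 72 counts) against 0.348 and 1.49 CPM in sham (6 and 26 counts). The groups did not overlap (log2 fold change 2.72, SE 0.66, adjusted p = 0.0106), but the libraries within each group lay far apart. At 3 days Elovl6 stood at 17.5 and 23.6 CPM in MI against 2.41 and 1.12 CPM in sham, 11.7-fold higher (log2 fold change 3.54, SE 0.47, adjusted p = 0.000175). MI tissue at 3 days exceeded MI tissue at 1 day by 1.75 (SE 0.44, adjusted p = 0.00922). This difference missed the threshold without library A of MI at 1 day (1.14, adjusted p = 0.0781), without library B of MI at 3 days (1.40, adjusted p = 0.072) and from unique reads (1.1, adjusted p = 0.164), in a range of adjusted p from 0.00298 to 0.164. Beside the 1-day counts stands the level of the chemosensory receptor genes: at 4.47 reads per kb in library B of MI at 1 day, the 5951 bases of Elovl6 would hold 26.6 reads, and by the same measure 3.57 in library A of MI and 3.75 and 8.21 in libraries A and B of sham. Without library B of MI at 1 day the 1-day log2 fold change was 2.10 (SE 0.71, adjusted p = 0.049). Without library A of sham at 1 day it was 1.95 (adjusted p = 0.105), in a range of adjusted p from 0.000193 to 0.105 over all alternatives.

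The mitochondrial carboxylase Acacb ran opposite to Acaca. It was at 166 and 113 CPM in MI against 612 and 425 CPM in sham at 1 day, 3.71-fold lower (log2 fold change -1.89, SE 0.24, adjusted p = 0.000499). At 3 days it was at 11.2 and 10.7 CPM in MI against 301 and 338 CPM in sham, 29.2-fold lower (log2 fold change -4.87, SE 0.28, adjusted p = 1.72e-06). The MI libraries were below the sham libraries at both days, and the effect was larger at 3 days by -2.98 on the log2 scale (SE 0.34, adjusted p = 0.000487). Per length, Acacb made up 88.4% and 81.7% of the reads of both carboxylases in MI against 97.6% and 97.2% in sham at 1 day. At 3 days it made up 35.3% and 32.4% in MI against 96.1% and 96.0% in sham, so that Acaca was the more abundant carboxylase transcript in 3-day MI tissue alone among the 4 groups.

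Of the regulators, Thrsp was lower in MI tissue and Srebf1 passed the threshold at neither day. Thrsp was at 15.2 and 16.1 CPM in MI against 43.4 and 43.0 CPM in sham at 1 day, 2.77-fold lower (log2 fold change -1.47, SE 0.19, adjusted p = 0.000546). At 3 days it was at 2.54 and 2.42 CPM in MI against 32.2 and 31.0 CPM in sham, 12.8-fold lower (log2 fold change -3.67, SE 0.21, adjusted p = 1.82e-06). The libraries of each group lay close together and the groups far apart, and the effect was larger at 3 days by -2.20 (SE 0.29, adjusted p = 0.00089). Srebf1 was at 74.7 and 26.8 CPM in MI against 41.4 and 33.7 CPM in sham at 1 day, so that one MI library was above and the other below both sham libraries (log2 fold change 0.46, SE 0.37, adjusted p = 0.348). Without library A of MI it was -0.58 (adjusted p = 0.0415), and without library B of MI it was 0.99 (adjusted p = 0.00354), in a range of adjusted p from 0.00354 to 0.89 over all alternatives. At 3 days Srebf1 was at 33.0 and 35.1 CPM in MI against 39.3 and 35.1 CPM in sham (log2 fold change -0.13, SE 0.36, adjusted p = 0.785).

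The 1-day calls were also read without each of the libraries that stood apart. Without library A of MI at 1 day the log2 fold changes at 1 day were -1.06 for Scd2, 2.72 for Scd4 and 0.40 for Acly. In the same fit they were 0.79 for Acaca, -2.29 for Acacb, 3.16 for Elovl6 and -1.52 for Thrsp. Without library B of MI at 1 day the log2 fold changes at 1 day were -0.82 for Scd2, 0.95 for Acly, 0.67 for Acaca, -1.64 for Acacb and -1.51 for Thrsp, all still past the threshold. Without library B of sham at 1 day they were 2.24 for Scd4, 4.03 for Elovl6, -2.19 for Acacb and -1.54 for Thrsp, past the threshold, and those of Scd2, Acly and Acaca given above, which were not.

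**Figure D3:**
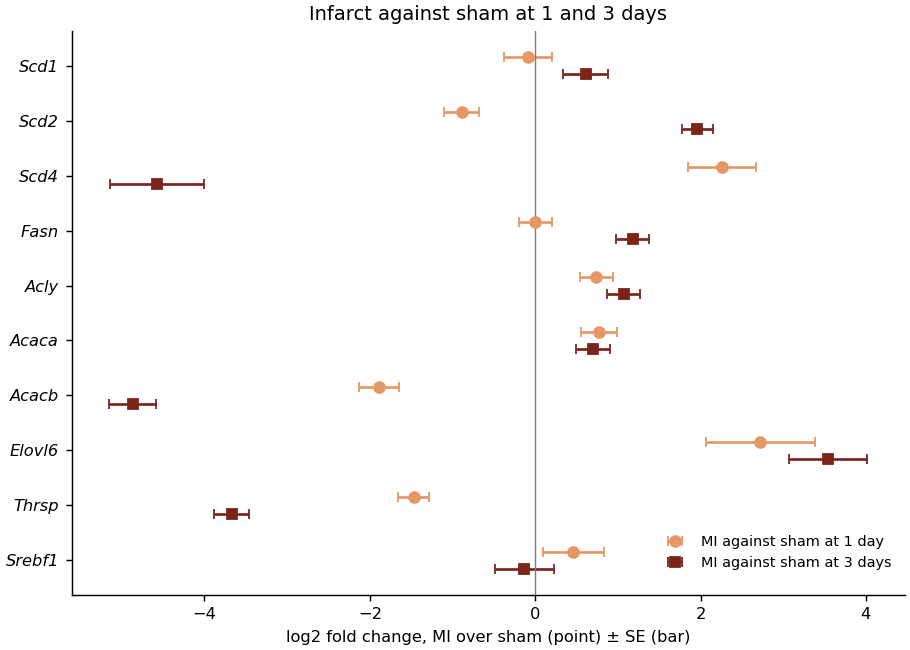
Log2 fold change of MI over sham (points) with SE (bars) for each of the 10 genes at 1 day (circles) and 3 days (squares). Scd2 and Scd4 lie on opposite sides of 0 at the different days, at -0.89 and 1.96 for Scd2 and at 2.26 and -4.57 for Scd4, whereas Acacb and Thrsp lie below 0 at both.

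Across the days, 5 of the 10 genes differed in their infarct effect (2 upward, Scd2 and Fasn, and 3 downward, Scd4, Acacb and Thrsp), beside 24.5% of all genes tested. Between MI tissue at 3 days and at 1 day, 5 passed the threshold, beside 45.4% of all genes. Acacb stood at -3.68 (SE 0.27, adjusted p = 1.04e-05) and Thrsp at -2.65 (SE 0.23, adjusted p = 2.50e-05) in that comparison. Between sham tissue at 3 days and at 1 day, 0 of 10 passed in edgeR, beside 0.0% of all genes. In that comparison 1211 of 15508 genes (7.81%) had an unadjusted p under 0.05 in edgeR, and DESeq2 called 43 and limma-voom 0 genes after adjustment. Fasn, Acacb and Thrsp were among those under an unadjusted 0.05, with Acacb at -0.70 (SE 0.23, adjusted p = 0.631) and Thrsp at -0.45 (SE 0.17, adjusted p = 0.631). These comparisons share libraries with one another.

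Levels can be set between genes per kb of the longest transcript. In sham tissue Acacb and Thrsp led, at 59.0 ± 15 and 33.8 ± 0.196 CPM per kb at 1 day and at 36.3 ± 2.97 and 24.8 ± 0.674 CPM per kb at 3 days (SD, n = 2). Acly followed at 14 ± 1.53 CPM per kb at 1 day and 12.8 ± 1.58 at 3 days, then Srebf1 at 8.74 ± 1.28 and 8.66 ± 0.688. Elovl6 was last in both sham groups, at 0.155 ± 0.136 and 0.296 ± 0.153 CPM per kb, below Acaca at 1.56 ± 0.224 and 1.5 ± 0.175. In the middle of the order at 3 days in sham tissue, Scd2 (6.88 ± 1.41), Scd1 (5.81 ± 2.61) and Scd4 (5.41 ± 1.58 CPM per kb) did not differ beyond their spread.

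In MI tissue the order changed. At 1 day Acly (23.3 ± 5.08), Scd4 (20.7 ± 13.0), Acacb (15.9 ± 4.29), Thrsp (12.2 ± 0.522) and Srebf1 (11.8 ± 7.88 CPM per kb) led. Of these neighbours only Acacb and Thrsp did not overlap, by a narrow margin (12.8 CPM per kb in the lower Acacb library, 12.6 in the higher Thrsp library). At 3 days Acly (26.9 ± 1.98) and Scd2 (26.7 ± 1.09 CPM per kb) led together and did not differ beyond their spread. They were followed by Scd1 (8.87 ± 0.780), Srebf1 (7.92 ± 0.333) and Fasn (6.77 ± 0.0906 CPM per kb), whose libraries did not overlap. Elovl6 (3.45 ± 0.720) now stood above Acaca (2.44 ± 0.154), Thrsp (1.94 ± 0.0689), Acacb (1.24 ± 0.0343) and Scd4 (0.227 ± 0.0297 CPM per kb), without overlap of neighbours.

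Among the 10 genes, Pearson's r of log2 CPM over the 8 libraries was 0.99 for Acacb with Thrsp, -0.98 for Scd2 with Scd4 and -0.93 for Acacb with Elovl6. Over the 10846 genes that averaged 5 CPM or more, the patterns most like that of Scd2 were those of the histone genes Hist1h4f (r = 0.998), Hist1h1d (0.998) and Hist1h4k (0.997). Most like Scd1 were Ly6a (0.958), a surface antigen of stem and endothelial cells, Scarna13 (0.938) and the chemokine gene Ccl11 (0.934). Most like Fasn were the purine synthesis gene Atic (0.967), the Wnt receptor gene Fzd7 (0.962) and Adck4 (0.961). These correlations describe 8 libraries that fall into 4 groups, and they share library depth and tissue makeup.

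The pathway around these genes was read from 5 further lists. Of 16 regulators that sense sterols or carbohydrate, 0 rose and 4 fell at 1 day, and 3 rose and 4 fell at 3 days, with median log2 fold changes of -0.42 and -0.31. Over all genes tested, 19.3% rose and 19.7% fell at 1 day and 31.7% rose and 23.7% fell at 3 days, with medians of 0.12 and 0.16. Mlxipl, which encodes the glucose-responsive factor ChREBP, fell by 1.88 at 1 day (SE 0.36, adjusted p = 0.00353) and fell by 3.84 at 3 days (SE 0.35, adjusted p = 1.65e-05). The nuclear receptor gene Rxra fell by 1.18 at 1 day (SE 0.28). At 3 days Cebpa, a factor of fat and myeloid cells, rose by 1.92 (SE 0.28), Insig1, which retains the SREBP complex in the endoplasmic reticulum, rose by 0.87 (SE 0.18), and Mid1ip1, the paralog of Thrsp, fell by 1.96 (SE 0.60). At 1 day the MI libraries of Mid1ip1 lay far apart, at 395 and 68.9 CPM against 136 and 168 CPM in sham (adjusted p = 0.412). Its effect differed between the days by -2.58 (SE 0.82, adjusted p = 0.0476).

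Of 11 genes that supply acetyl-CoA and NADPH, 4 rose and 3 fell at 1 day, and 7 rose and 3 fell at 3 days (medians 0.16 and 1.29), beside 19.3% and 19.7% of all genes at 1 day and 31.7% and 23.7% at 3 days. The pentose phosphate enzyme genes G6pdx and Tkt rose at 1 day by 1.47 (SE 0.27) and 1.04 (SE 0.26), and Pgls of the same pathway fell by 1.23 (SE 0.22). At 3 days Tkt rose by 2.16 (SE 0.26) and the malic enzyme gene Me2 by 2.05 (SE 0.21), while its relative Me3 fell by 4.12 (SE 0.25). Me1, the other malic enzyme gene of the list, fell by 1.59 at 3 days (SE 0.18) and was at 0.16 at 1 day (SE 0.17, adjusted p = 0.49). Acss2, which makes acetyl-CoA from acetate, fell by 1.5 at 1 day (SE 0.21) and fell by 2.58 at 3 days (SE 0.21). The list thus moved in both directions at both days.

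Of 18 elongation and desaturation genes other than the 10, 12 were tested. At 1 day 2 rose and 2 fell, and at 3 days 8 rose and 1 fell (medians 0.36 and 1.12), beside 19.3% and 19.7% of all genes at 1 day and 31.7% and 23.7% at 3 days. The elongase gene Elovl1 rose by 1.23 at 1 day (SE 0.23) and Fads3 by 0.80 (SE 0.24), and the desaturase gene Fads1 fell by 1.04 (SE 0.22). At 3 days Fads1 was higher, by 0.99 (adjusted p = 0.00166), and its effect differed between the days by 2.03 (adjusted p = 0.00144). At 3 days Hsd17b12, the ketoacyl reductase of elongation, rose by 2.26 (SE 0.18) and Fads2 by 1.74 (SE 0.29). Tecr, the enoyl reductase of the same cycle, fell by 1.16 at 1 day (SE 0.21) and fell by 3.10 at 3 days (SE 0.23).

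Of 24 genes of triglyceride synthesis and the lipid droplet, 21 were tested. At 1 day 2 rose and 11 fell, beside 19.3% and 19.7% of all genes, and at 3 days 3 rose and 14 fell, beside 31.7% and 23.7% (medians -1.01 and -1.97). The droplet coat gene Plin2 rose by 2.37 at 1 day (SE 0.16) and 2.55 at 3 days (SE 0.16), and the phosphatidate phosphatase gene Lpin2 by 1.02 (SE 0.24) and 1.03 (SE 0.24). Lpin1 fell by 2.22 (SE 0.22) and Fitm2, which acts in droplet formation, fell by 2.01 (SE 0.18) at 1 day. At 3 days Plin5, the droplet coat of oxidative tissues, fell by 5.27 (SE 0.22) and Dgat2, which makes triglyceride, fell by 4.53 (SE 0.30).

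Of 11 genes of the AMP-activated kinase (AMPK), which inhibits both carboxylases, and of the use of malonyl-CoA, 2 rose and 4 fell at 1 day, and 1 rose and 8 fell at 3 days (medians -0.45 and -0.96), beside 19.3% and 19.7% of all genes at 1 day and 31.7% and 23.7% at 3 days. Mlycd, which breaks down malonyl-CoA, fell by 1.40 at 1 day (SE 0.23) and fell by 3.37 at 3 days (SE 0.25). The kinase subunit gene Prkaa1 rose by 0.84 (SE 0.22) and 0.83 (SE 0.21), and Prkaa2, the catalytic subunit gene that prevails in muscle, fell by 3.43 at 3 days (SE 0.19). Prkab2 rose by 1.08 (SE 0.20) and Stk11, which encodes the upstream kinase LKB1, fell by 1.26 (SE 0.29) at 1 day. At 3 days Prkab2 was lower, at -0.83 (adjusted p = 0.00547), and its effect differed between the days by -1.91 (adjusted p = 0.00151). Cardiomyocyte marker sums were lower in the same MI libraries, as given above, and their part in these falls was not tested.

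**Figure D4:**
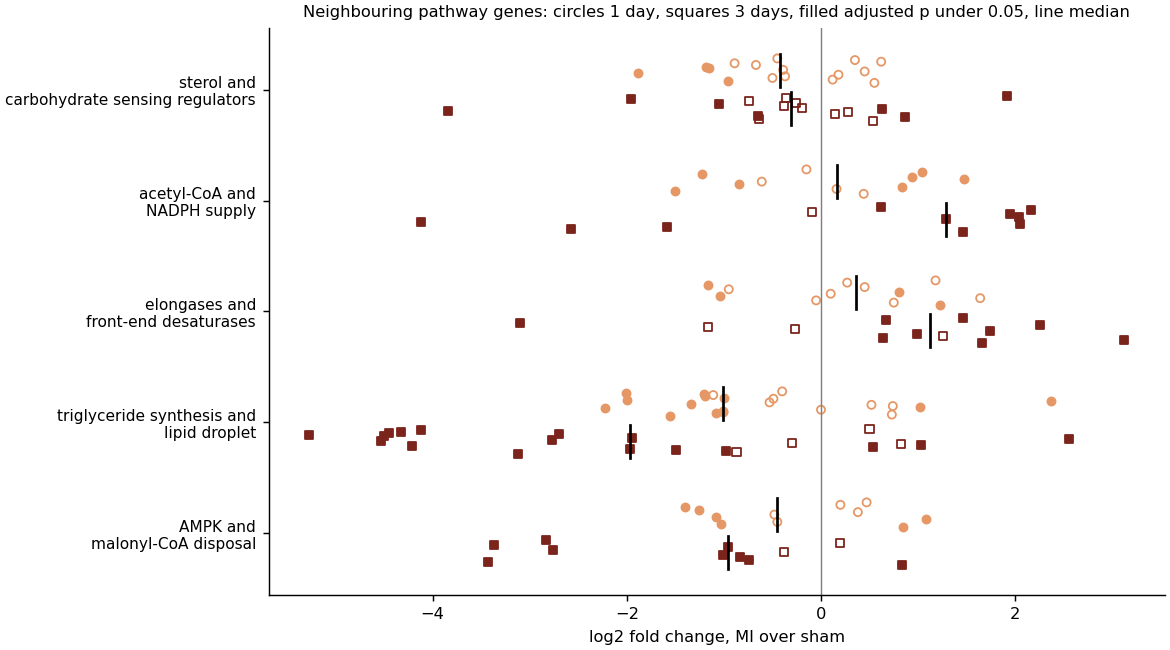
Log2 fold change of MI over sham of every tested gene in 5 pathway lists at 1 day (circles) and 3 days (squares); filled symbols passed an adjusted p of 0.05 and black lines are medians. Triglyceride and droplet genes have medians of -1.01 and -1.97, and acetyl-CoA and NADPH genes 0.16 and 1.29.

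In the authors' deposited table for 1 day, Acly (log2 fold change 0.67, adjusted p = 0.0967) and Acaca (0.68, adjusted p = 0.185) did not pass 0.05. The authors' deposited table for 3 days was taken as sham over MI because its signs over all genes ran opposite to those from the counts. Acaca was at -0.53 there (adjusted p = 0.0565). Each other gene of the 10 was on the same side of that threshold, and in the same direction, in the authors' deposited table as in the fit used here, given the sign of each table. The sameness of direction at 3 days thus rests on a sign set from the counts.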

How the data were processed

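Ribosomal RNA was depleted from total RNA before paired-end sequencing on a HiSeq2500, per the labels' protocols. The build mm10 and the tools TopHat2 2.0.14, Bowtie2 2.2.5, HTSeq, DESeq2, SAMtools 0.1.2 and FastQC come from the submitters' processing notes, which give no role or order here. Annotation, strand setting and filters were not given in the sources used here. The authors deposited raw counts per gene symbol for each time point. The authors also deposited log2 fold changes and p-values from DESeq2, per the file headers. The deposited transcript tables give unique reads per transcript as counts, of which only those were summed to genes; 48 other columns of per-library values were not used. Columns show a group without a replicate number, and both sham count columns at 1 day have the same header. Letters A and B thus follow column order and do not pair libraries across groups. For MI at both days and sham at 3 days, the headers carry the same sample numbers, in the same order, in the counts and the transcript tables. For sham at 1 day the letters cannot be matched between them.

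The 24062 genes in both tables were filtered with filterByExpr, which left 15508, and fitted over all 8 libraries with a term for the group, in R 4.3.3 with edgeR 4.0.16 (TMM, robust quasi-likelihood F test, common dispersion 0.0602, 4 residual degrees of freedom). P-values were two-sided and adjusted by Benjamini-Hochberg over all genes tested (threshold 0.05). The SE is the log2 fold change divided by the square root of F. Alternatives used DESeq2 1.42.0, limma 3.58.1, other scalings, no filter, one day's libraries alone, each library left out, and unique reads. The test was checked on simulated counts. The members and gene lists were chosen with earlier results of these data known. Named were all 10 genes and, per list and day, the called genes with the 2 largest rises and 2 largest falls that averaged 1 CPM or more. Me1 was named beside its relatives Me2 and Me3. The 3 genes most like Scd1, Scd2 and Fasn were found by Pearson's r of log2 CPM (prior count 2), without predicted-gene symbols. Paralog sequences came from GENCODE transcripts of an older build, used for sequence only. Counting noise alone limits precision at low levels, where 3 counts were taken as a floor.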

Additional observations from a re-analysis of the deposited data

Results flagged for a closer look

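For 5 genes the effect of MI against sham differed between 3 days and 1 day by the interaction term of the edgeR fit, where 24.5% of all genes tested did so. Scd2 differed by 2.84 on the log2 scale (SE 0.29, adjusted p = 0.000257), being lower in MI at 1 day and higher at 3 days. Scd4 differed by -6.83 (SE 0.70, adjusted p = 0.000291), in the opposite direction at each day. Fasn differed by 1.19 (SE 0.29, adjusted p = 0.016). Acacb differed by -2.98 (SE 0.34, adjusted p = 0.000487) and Thrsp by -2.20 (SE 0.29, adjusted p = 0.00089), both lower in MI at both days. The 1-day and 3-day mice, sham mice included, were separate animals, and shared days of surgery or sequencing were not given in the sources used here.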

How the results depend on the processing

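Of 482 values of single genes recomputed under an alternative, 434 kept their direction and side of the threshold, 36 fell short of it, 4 newly passed it and 8 turned direction. A value that turned was counted only as turned, even where it newly passed, as Srebf1 did at 1 day without library A of MI (-0.58). The 33 results were those of all 10 genes at each day and of called genes in the difference and between the MI groups. Between the sham groups only Fasn, Acacb and Thrsp entered, by an unadjusted p under 0.05. For 19 of the 33 no alternative changed the direction or the side of the threshold. Among them were Scd4, Acacb and Thrsp at both days and in the difference, and Scd2 and Elovl6 at 3 days. The sham results of Fasn, Acacb and Thrsp were also among them, being called in no alternative. At 1 day 7 of the 10 genes were called, beside 6051 of 15508 genes tested. Leaving out 1 library moved that number. Without either library of sham at 1 day, A or B, fewer of the 10 and fewer of all genes were called. At 3 days 8 of the 10 were called, beside 8591 of 15508 genes tested. From unique reads alone it was 5 of the 10, beside 5811 of 12704 genes tested.

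Turned values at 1 day were 0.21 for Scd1 and 0.28 for Fasn with library size alone. From unique reads they were 0.39 for Fasn and -0.10 for Srebf1. With 1 library left out they were 0.18 (without B of MI) and 0.02 (without A of sham) for Fasn, and -0.58 (without A of MI) for Srebf1. All fits with 1 library left out, turned or not, ranged from -0.33 to 0.18 for Fasn and from -0.58 to 0.99 for Srebf1. At 3 days Srebf1 was at 0.14 with library size alone. The cause was not tested. Library size alone also put the median of all genes at 0.40 at 1 day and 0.43 at 3 days, against 0.12 and 0.16 with TMM. 

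Of calls lost, Acly at 1 day was lost in 10 of 15 alternatives (0.40 to 1.02 over all) and Acaca in 6 (0.56 to 1.94), among them without either sham library at 1 day. Acaca at 3 days was lost in 5 of 15, without library A of MI (0.55), library B of MI (0.41) or library A of sham (0.59), and was 0.20 from unique reads. Acly at 3 days was lost without library A of MI (0.78) and from unique reads (0.63). Fasn at 3 days was lost from unique reads (1.02, adjusted p = 0.0535, range 3.59e-05 to 0.0535). Reads shared by several transcripts of the same gene may be missing from unique reads. The part of this in calls lost from unique reads was not tested. Elovl6 between MI at 3 days and at 1 day was lost without library A of MI at 1 day (1.14), without library B of MI at 3 days (1.40) and from unique reads (1.1). With 2 libraries a group, leaving one out assumes that the lone library varies like the other groups. Total reads of the transcript tables were not run, since only 1 measure per library could be assigned. No paired analysis was possible because the columns carry no replicate number.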
